A study of Mus musculus with 6 samples.

Results

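Hedgehog signalling was examined through 8 genes, the ligands Shh and Ihh, the receptor gene Ptch1, the signal transducer Smo, the ligand-binding antagonist Hhip and the transcription factors Gli1, Gli2 and Gli3. The members were chosen by name, and each probe set annotated to exactly 1 of these genes was kept, which gave 19 of the 45037 probe sets that remained once control probe sets were left out. The tissues were the cochlear sensory epithelium and the vestibular sensory epithelium (saccule, utricle, and lateral and anterior cristae) of wild type C3H mice at postnatal day 2, and 3 Affymetrix arrays were hybridised for each. No mouse was treated or mutant, and both tissues carried their underlying mesenchyme and attached neurons, so each array read a pool of several ears and many cell types. The sources used here do not give which pool went to which array, so the p-values reflect the spread between these arrays, part of which may be technical. In such bulk tissue, fewer cells of a type and less RNA per cell cannot be told apart.

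Hedgehog ligands bind Patched receptors, which releases Smoothened from inhibition, and Smoothened acts at the primary cilium to set the balance of activating and repressing forms of the Gli proteins. Gli3 mainly works as a repressor when ligand is absent, Gli2 is the main activator, and Gli1, Ptch1 and Hhip are themselves switched on by the pathway in many tissues, where Ptch1 and Hhip dampen it. In the embryonic inner ear Shh patterns the ventral otocyst, from which the cochlear duct grows, and it is also made by neurons of the developing spiral ganglion.

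Values are log2 expression levels computed by the authors with the robust multiarray average (RMA), deposited to 1 decimal, so that a difference of 1 is a factor of 2. Differences are vestibule minus cochlea throughout, and a negative value stands for a higher level in the cochlea. A probe set was called at a limma adjusted p under 0.1 (Benjamini-Hochberg over the tested probe sets) with a fold of at least 1.3. Of the 19 probe sets, 13 were bright enough to be tested (a mean log2 level of at least 4.68), and these read 7 of the 8 genes, since Ihh had none. The array medians lay between 5.6 and 5.7, and the arrays correlated at 0.981 to 0.988 within the cochlea, at 0.993 within the vestibule and at 0.945 to 0.961 across the tissues. Of 11 tested hair cell markers 7 were higher in the vestibule and none favoured the cochlea. Of 10 supporting cell markers 5 favoured the cochlea and 1 the vestibule. Over all tested genes 17.4% were called for the vestibule and 9.63% for the cochlea, and each marker count is to be read against these shares. The log2 summed level of the hair cell list was 11.35 to 11.64 across cochlear arrays and at least 12.76 on each vestibular array.

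Gli3, Gli2 and Shh were higher in the cochlea, Hhip was higher in the vestibule at 1 of its probe sets, and Ptch1, Smo and Gli1 did not pass the test. Of the 13 tested probe sets 5 were called higher in the cochlea, against 7.37% of all tested probe sets, and 1 was called higher in the vestibule, against 12.0%. By gene, 3 of the 7 were called higher in the cochlea, where 9.63% of all tested genes had such a probe set, and 1 was called higher in the vestibule, where 17.4% had one. The arrays of the tissues did not overlap for 6 of the 13, the same 6 that were called, against 27.4% of all tested probe sets. The median log2 difference was 0.10 over the 13 and 0.00 over all tested probe sets.

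**Figure D1:**
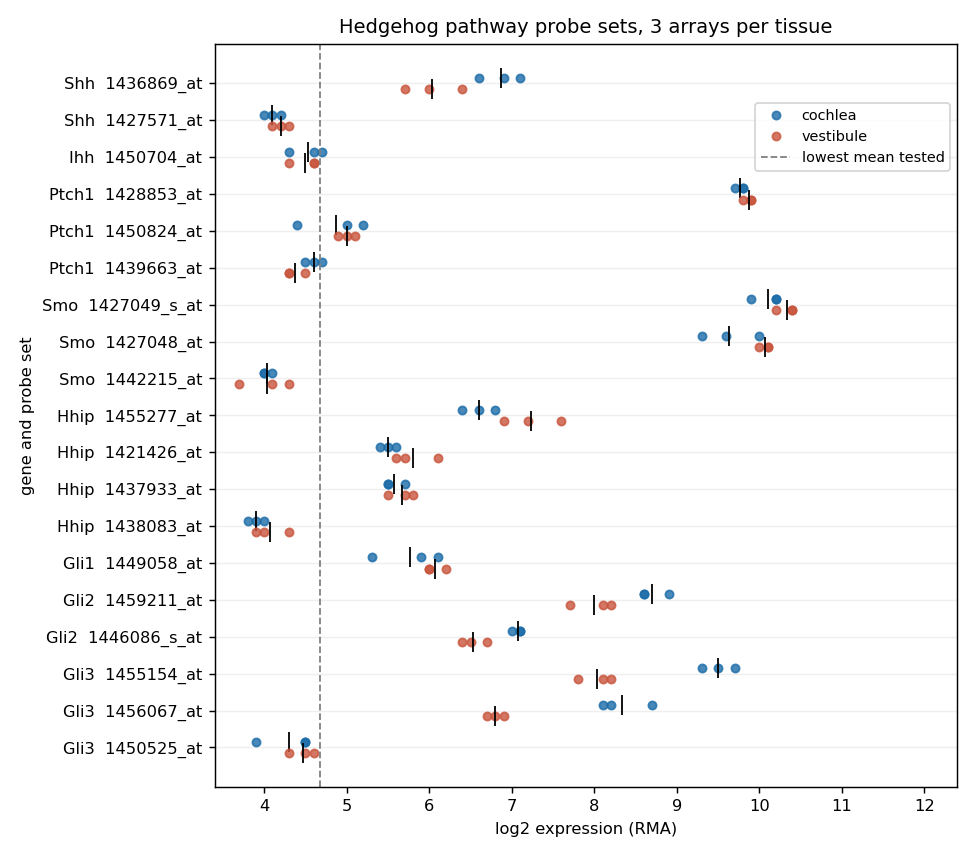
Log2 expression (RMA, horizontal axis) at each of the 19 probe sets of the 8 genes, with the 3 cochlear arrays as blue points and the 3 vestibular arrays as red points and a bar at each mean. The dashed line marks 4.68, the lowest mean that was tested. The points of the tissues lie apart for 1 probe set of Shh, 1 of Hhip, 2 of Gli2 and 2 of Gli3.

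Of the ligands, Shh was higher in the cochlea at its brighter probe set. This probe set, 1436869_at, read 6.9, 6.6 and 7.1 in the cochlea and 6.0, 6.4 and 5.7 in the vestibule. The tissues did not overlap, but the lowest cochlear and the highest vestibular array were only 0.2 apart. The log2 difference was -0.83 (standard error 0.20, 95% confidence interval, CI, -1.28 to -0.38, limma adjusted p = 0.0210), or 1.78-fold. The call was lost without cochlear array 1 (-0.82, limma adjusted p = 0.106) or 3 (-0.72, limma adjusted p = 0.114) and without vestibular array 1 (-0.82, limma adjusted p = 0.122) or 3 (-0.67, limma adjusted p = 0.109). The other probe set of Shh, 1427571_at, read 4.0 to 4.2 on cochlear and 4.1 to 4.3 on vestibular arrays, under the level tested. Neuronal genes shared the tissue direction of Shh: 13 of 15 tested markers favoured the cochlea and 1 the vestibule, against 9.63% and 17.4% of all tested genes. The log2 summed level of the neuronal list was 13.13 to 13.28 across cochlear and 11.98 to 12.11 across vestibular arrays, with Stmn2 at -3.90, Nefh at -2.80 and Syt1 at -2.33. Supporting cell markers shared the direction at 5 of 10, with 1 the other way. The part of either cell type in the difference of Shh was not tested.

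Ihh, the ligand that paces growing cartilage, has 1 probe set, 1450704_at, which was not tested because of its low level. It read 4.6, 4.3 and 4.7 in the cochlea and 4.3, 4.6 and 4.6 in the vestibule, and the arrays overlapped. The log2 difference in a fit of all probe sets was -0.03 (95% CI -0.36 to 0.29). Cartilage and bone genes were measured in both tissues, with 6 of 10 tested markers higher in the vestibule, among them Ibsp at 4.40, and 1, Matn1, higher in the cochlea at -3.93. The shares of all tested genes were 17.4% for the vestibule and 9.63% for the cochlea. The log2 summed level of the cartilage and bone list overlapped, at 14.31 to 14.76 on cochlear and 14.56 to 14.70 on vestibular arrays.

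Ptch1, the receptor that holds Smoothened in check and a target of the pathway, differed little at its bright probe set. That probe set, 1428853_at, read 9.8, 9.7 and 9.8 in the cochlea and 9.8, 9.9 and 9.9 in the vestibule. The log2 difference was 0.10 (standard error 0.11, 95% CI -0.14 to 0.34, limma adjusted p = 0.592), so a log2 difference beyond 0.34 in either direction lies outside the interval. Probe set 1450824_at read 5.0, 4.4 and 5.2 in the cochlea and 5.0, 4.9 and 5.1 in the vestibule, with which gave a difference of 0.13 log2 units (95% CI -0.31 to 0.58). Cochlear array 2 was lowest there, and without it the difference was -0.10. The last, 1439663_at, read 4.5 to 4.7 on cochlear and 4.3 to 4.5 on vestibular arrays and was not tested.

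Smo, which carries the signal from the receptor into the cell, did not pass the test at any probe set. Probe set 1427049_s_at read 9.9, 10.2 and 10.2 in the cochlea and 10.4, 10.4 and 10.2 in the vestibule, which gave a difference of 0.23 log2 units (95% CI -0.06 to 0.53, limma adjusted p = 0.287). Probe set 1427048_at, annotated to the same target sequence, read 9.6, 10.0 and 9.3 in the cochlea and 10.1, 10.1 and 10.0 in the vestibule. Its log2 difference was 0.43 (95% CI 0.04 to 0.83, limma adjusted p = 0.138), and cochlear array 2 reached the level of the vestibule. Without that array it was called at 0.62 (limma adjusted p = 0.0269), and without cochlear array 3 it stood at 0.27 (limma adjusted p = 0.308). Probe set 1442215_at read 3.7 to 4.3 over all arrays and was not tested.

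Hhip, which binds Hedgehog ligands at the cell surface and limits their reach, was the 1 member called higher in the vestibule. Probe set 1455277_at read 6.8, 6.6 and 6.4 in the cochlea and 7.2, 7.6 and 6.9 in the vestibule, and the nearest arrays of the tissues were 0.1 apart. The log2 difference was 0.63 (standard error 0.19, 95% CI 0.21 to 1.06, limma adjusted p = 0.0538), or 1.55-fold. It was not called without cochlear array 2 (0.63, limma adjusted p = 0.137) or 3 (0.53, limma adjusted p = 0.202), nor without vestibular array 1 (0.65, limma adjusted p = 0.182) or 2 (0.45, limma adjusted p = 0.177). Of the others, 1421426_at read 5.4 to 5.6 on cochlear and 5.6 to 6.1 on vestibular arrays (log2 difference 0.30, limma adjusted p = 0.236), and 1437933_at read 5.5 to 5.7 and 5.5 to 5.8 (log2 difference 0.10, limma adjusted p = 0.655). The dimmest, 1438083_at, read 3.8 to 4.0 and 3.9 to 4.3 and was not tested. All 4 probe sets of Hhip had a positive difference, from 0.10 to 0.63, and the call rests on 1 of them. Of 12 tested mesenchymal markers 6 were, like Hhip, higher in the vestibule, 1, Lum, was higher in the cochlea, and 5 did not pass. Their log2 summed level was 15.13 to 15.58 over cochlear and 15.72 to 15.86 over vestibular arrays. Hair cell markers shared the direction at 7 of 11, with none the other way. Cartilage and bone markers did so at 6 of 10 and Schwann cell markers at 3 of 6, with 1 of each the other way. Of all tested genes 17.4% were called for the vestibule and 9.63% for the cochlea. The part of any of these cell types in the difference of Hhip was not tested.

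Gli2 and Gli3 were called higher in the cochlea at 2 probe sets each, and the 250 bases before their transcription starts are therefore shown, from RefSeq on the mouse build GRCm38.p6. The window of Gli2 lies at chr1:119053620-119053869 on the minus strand and that of Gli3 at chr13:15463473-15463722 on the plus strand. CpG dinucleotides are in capitals.

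Gli2: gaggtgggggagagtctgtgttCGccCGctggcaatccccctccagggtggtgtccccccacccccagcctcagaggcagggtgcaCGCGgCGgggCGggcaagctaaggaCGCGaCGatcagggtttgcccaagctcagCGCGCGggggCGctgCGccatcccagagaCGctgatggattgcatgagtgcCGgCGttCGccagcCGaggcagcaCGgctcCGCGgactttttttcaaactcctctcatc
Gli3: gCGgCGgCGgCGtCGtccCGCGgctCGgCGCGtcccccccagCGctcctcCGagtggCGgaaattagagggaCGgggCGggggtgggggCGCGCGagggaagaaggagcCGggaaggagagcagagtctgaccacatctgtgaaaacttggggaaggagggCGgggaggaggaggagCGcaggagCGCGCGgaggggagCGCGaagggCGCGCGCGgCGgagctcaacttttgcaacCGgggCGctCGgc

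These windows held 22 CpG in Gli2 and 34 in Gli3. Promoter windows were in the table for 6 of the 8 members, Ihh, Gli2, Smo, Hhip, Gli3 and Ptch1, and all 6 held 15 CpG or more, as did 27.3% of the 32851 windows of the table, whose median was 6. Smo had the fewest, 15, and Ptch1 the most, 41, so that called and uncalled members alike were rich in CpG. The consensus bound by Gli proteins, GACCACCCA, was searched on both strands (TGGGTGGTC on the other). It was in none of the 6 windows and in 0.225% of all windows, and the nearest stretch in any member differed from it at 2 of its 9 letters. This says only that these letters are not in these short windows.

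Gli3, the Gli protein that mainly represses targets, had the largest difference of the members. Its brightest probe set, 1455154_at, read 9.7, 9.5 and 9.3 on the cochlear arrays 1 to 3 and 8.2, 8.1 and 7.8 on the vestibular arrays 1 to 3. The lowest cochlear array thus stood 1.1 above the highest vestibular one. The means were 9.50 ± 0.20 (SD, n = 3) and 8.03 ± 0.21 (SD, n = 3), which gave a difference of -1.47 log2 units (standard error 0.15, 95% CI -1.81 to -1.12, limma adjusted p = 2.61e-04), which is 2.76-fold higher in the cochlea. The second probe set, 1456067_at, read 8.7, 8.2 and 8.1 in the cochlea and 6.9, 6.8 and 6.7 in the vestibule, with which gave a difference of -1.53 log2 units (95% CI -1.91 to -1.15, limma adjusted p = 3.37e-04). Both probe sets therefore gave nearly the same difference. The third, 1450525_at, read 3.9 to 4.5 on cochlear and 4.3 to 4.6 on vestibular arrays, below the level that was tested. Both tested probe sets of Gli3 kept their call without any 1 array, at differences of -1.57 to -1.35 and -1.65 to -1.35.

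Gli2, the main activator among the Gli proteins, was also higher in the cochlea. The probe set 1459211_at read 8.6, 8.6 and 8.9 in the cochlea and 8.1, 8.2 and 7.7 in the vestibule, which gave a difference of -0.70 log2 units (standard error 0.16, 95% CI -1.06 to -0.34, limma adjusted p = 0.0177). The probe set 1446086_s_at read 7.1, 7.1 and 7.0 in the cochlea and 6.5, 6.7 and 6.4 in the vestibule, which gave a difference of -0.53 log2 units (95% CI -0.81 to -0.26, limma adjusted p = 0.0161). All cochlear arrays lay above all vestibular arrays at both, by 1.62-fold and 1.45-fold on the means. Both probe sets are annotated to the same target sequence and are not independent readings. Whether the difference of Gli3 exceeds the one of Gli2 was not tested. Neuronal markers shared the direction of Gli2 and Gli3 at 13 of 15 and supporting cell markers at 5 of 10, with 1 of each the other way. Of all tested genes 9.63% were called for the cochlea and 17.4% for the vestibule. The part of either cell type in the differences of Gli2 and Gli3 was not tested.

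Gli1, a transcriptional activator and a target of the pathway, has 1 probe set, 1449058_at. It read 5.9, 6.1 and 5.3 in the cochlea and 6.0, 6.2 and 6.0 in the vestibule, so the tissues overlapped. Its log2 difference was 0.30 (95% CI -0.15 to 0.75, limma adjusted p = 0.371), and cochlear array 3 stood lowest. Without that array the difference was 0.07. On the side of the cochlea the interval ended at -0.15. This probe set was dim, with means of 5.77 in the cochlea and 6.07 in the vestibule. Both lay near the array medians of 5.6 to 5.7, so a difference there may be understated. Whether the difference of Gli1 departs from those of Gli2 and Gli3 was not tested.

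**Figure D2:**
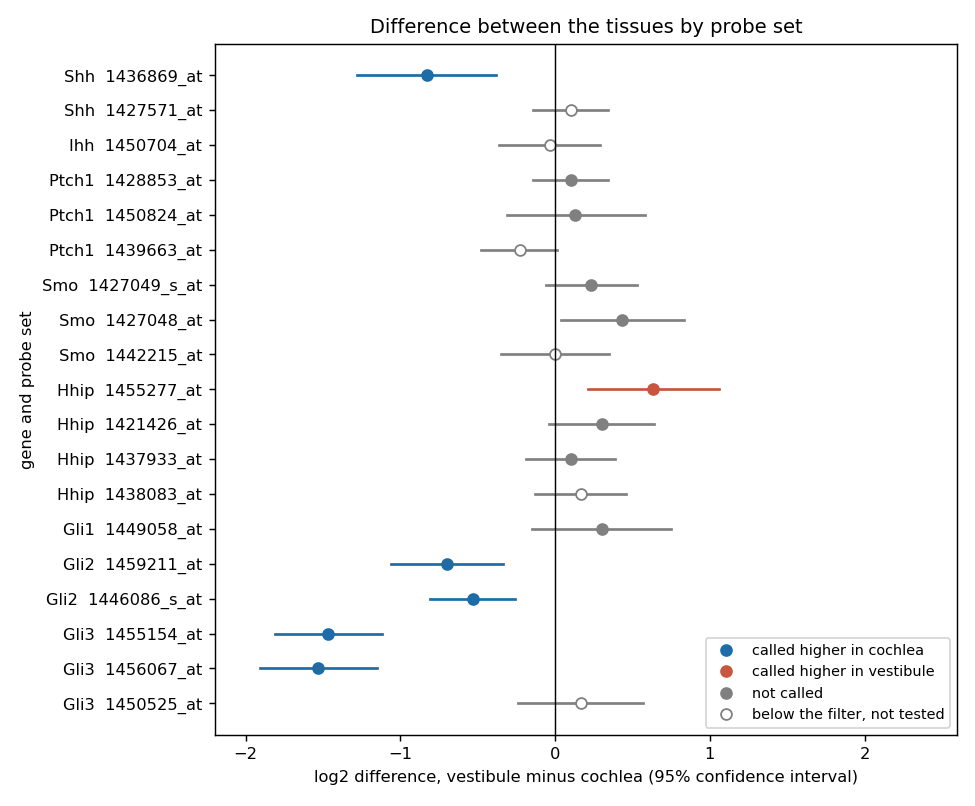
Log2 difference of vestibule minus cochlea at each of the 19 probe sets (points) with its 95% CI (lines). Blue is called higher in the cochlea, red higher in the vestibule, grey not called, and open points were below the filter and not tested; 5 points are blue, with Gli3 at -1.47 and -1.53, and 1 is red, Hhip at 0.63.

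The other genes of ligand release and reception were measured for 13 of 14 listed, and 4 were higher in the vestibule, 1 in the cochlea and 8 did not pass, against 17.4% of all tested genes called for the vestibule and 9.63% for the cochlea, with a median log2 difference of -0.03 against 0.03 for all tested genes. Cdon, a co-receptor that binds Hedgehog ligands together with Patched, read 10.6, 10.5 and 10.3 in the cochlea and 12.0, 11.6 and 12.1 in the vestibule. Its log2 difference was 1.43 (95% CI 1.08 to 1.79, limma adjusted p = 3.52e-04). The co-receptor Gas1 read 11.9, 11.9 and 11.7 in the cochlea and 12.7, 12.7 and 12.6 in the vestibule, a log2 difference of 0.83 (limma adjusted p = 0.00113), and its other probe sets gave 1.37 and 0.50, both called. Boc, the co-receptor related to Cdon, did not pass, at -0.30 (95% CI -0.64 to 0.04).

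Among genes that release the ligand, Scube2 read 6.5, 5.6 and 5.4 in the cochlea and 7.5, 7.6 and 7.4 in the vestibule, a log2 difference of 1.67 (limma adjusted p = 0.00221). Scube3 stood at 0.47 (limma adjusted p = 0.0339). It was not called without vestibular array 1 (0.47, limma adjusted p = 0.122) or 2 (0.42, limma adjusted p = 0.131). Disp2, a relative of the ligand transporter Disp1, was higher in the cochlea at -0.47 (limma adjusted p = 0.0293) but not without vestibular array 2 (-0.43, limma adjusted p = 0.113). That was its brightest probe set, and its other tested ones gave 0.17 and -0.27 and were not called. Disp1 itself stood at -0.03 (95% CI -0.29 to 0.22). The third ligand gene, Dhh, which Schwann cells make, read 8.3, 8.1 and 8.4 in the cochlea and 8.2, 7.7 and 7.4 in the vestibule, and it did not pass (log2 difference -0.50, limma adjusted p = 0.137). Its other tested probe set gave 0.07 (limma adjusted p = 0.8). Without vestibular array 1, and after a second quantile normalization, Dhh was called higher in the cochlea. Of 6 tested Schwann cell markers 3 favoured the vestibule and 1 the cochlea, against 17.4% and 9.63% of all tested genes. The log2 summed level of the Schwann cell list was 13.01 to 13.42 on cochlear and 13.98 to 14.65 on vestibular arrays. The part of Schwann cells in the difference of Dhh was not tested.

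**Figure D3:**
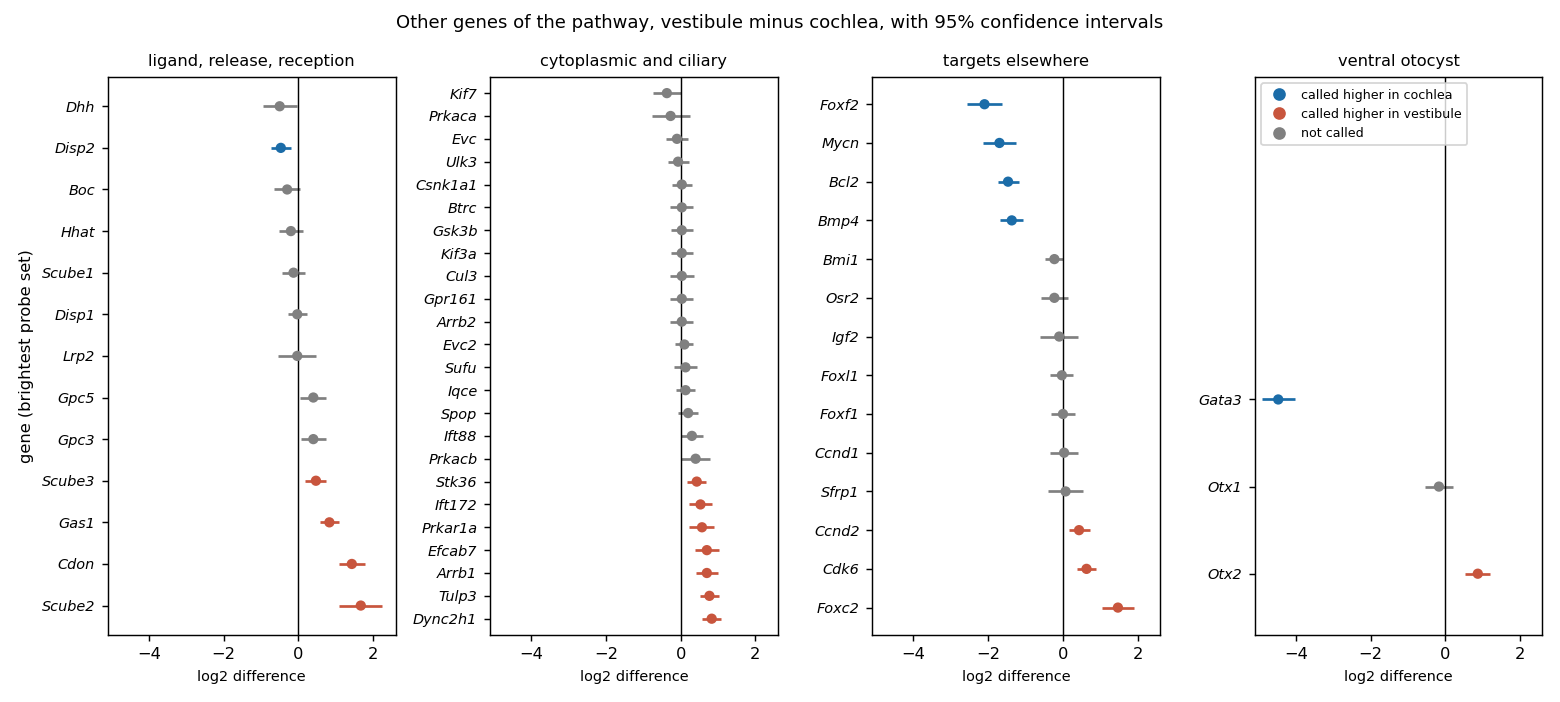
Log2 difference of vestibule minus cochlea with 95% confidence intervals for the brightest probe set of the other pathway genes, in 4 lists, coloured by the call of that probe set. Cdon (1.43) and Scube2 (1.67) lie farthest towards the vestibule in the first list, Foxf2 (-2.10) and Mycn (-1.70) farthest towards the cochlea among targets, and Gata3 stands at -4.47; Sfrp1 is grey because its calls were at other probe sets.

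Regulators in the cytoplasm and the cilium, through which the signal passes from Smoothened to the Gli proteins, were measured for 24 of 26 listed. Of these 7 were higher in the vestibule, 17 did not pass and none was higher in the cochlea, against 17.4% and 9.63% of all tested genes, with a median log2 difference of 0.12. Dync2h1, the motor of transport back from the tip of the cilium, stood at 0.83 (limma adjusted p = 0.00102) and Tulp3, which brings receptors into the cilium, at 0.77 (limma adjusted p = 0.00160). Another tested probe set of Tulp3 gave 0.13 and was not called. The arrestin gene Arrb1 and Efcab7, which helps tether the Evc complex at the base of the cilium, stood at 0.70 each. The remaining calls were Prkar1a at 0.57 (limma adjusted p = 0.0306), Ift172 at 0.53 (limma adjusted p = 0.0252) and Stk36 at 0.43 (limma adjusted p = 0.0291). They were lost in 3, 2 and 1 of the fits without 1 array. Another tested probe set of Prkar1a gave 0.40 and was not called. Sufu, which holds Gli proteins in the cytoplasm, did not pass at 0.13 (95% CI -0.18 to 0.44). Its other tested probe set ran the other way at -0.33 (limma adjusted p = 0.114), and without cochlear array 2 Sufu was called higher in the cochlea. The ciliary kinesin Kif7 did not pass at -0.37 (95% CI -0.73 to 0.00).

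Genes known as Hedgehog targets in one tissue or another were measured for 14 of 18 listed, and 5 favoured the cochlea, 3 the vestibule and 6 did not pass, against 9.63% and 17.4% of all tested genes, with a median log2 difference of -0.07. The forkhead gene Foxf2, a target in mesenchyme, read 7.3, 8.0 and 7.2 in the cochlea and 5.4, 5.3 and 5.5 in the vestibule, a log2 difference of -2.10 (limma adjusted p = 1.73e-04). Foxc2, another forkhead gene, ran the other way at 1.47 (limma adjusted p = 7.81e-04), from 7.3 to 7.9 in the cochlea to 8.8 to 9.3 in the vestibule. Mycn, which drives proliferation of Hedgehog-responsive progenitors, stood at -1.70 (limma adjusted p = 3.85e-04) at its brightest probe set, while its others gave -0.10 and -0.03 and were not called. The survival gene Bcl2 was higher in the cochlea at all 5 tested probe sets, from -1.77 to -0.93. Foxf1, which answers to Hedgehog in many organs, stood at 0.00 (95% CI -0.33 to 0.33). It was dim, at a mean of 5.47 in both tissues, so a difference there may be understated. The cyclin gene Ccnd1 stood at 0.03 (95% CI -0.35 to 0.41). Another cyclin gene, Ccnd2, was called higher in the vestibule at its brightest probe set (0.43, limma adjusted p = 0.0461). That call was lost in 3 of the fits without 1 array. Sfrp1 was called higher in the cochlea at 3 of its 5 probe sets (-0.63, -0.50 and -0.47) and not at its brightest (0.07). Foxf1, Ccnd1, Ccnd2 and Sfrp1 were named after their values were seen.

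Of the genes of the ventral otocyst that need Shh in the embryo, 3 of 4 were measured, with 1 called in each direction. Gata3 stood at -4.47, while Otx2 was higher in the vestibule, reading 8.3, 8.3 and 7.9 in the cochlea and 9.0, 9.2 and 8.9 in the vestibule (log2 difference 0.87, limma adjusted p = 0.00415). Otx1 did not pass at -0.17 (95% CI -0.54 to 0.20).

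The genes with a pattern most like each called member were found by the root mean square distance over the 6 arrays, after each brightest probe set was centred on its own mean. Nearest to Gli3 were Zfpm1 (distance 0.0764), Nav3 (distance 0.0816) and Ndrg4 (distance 0.107), and nearest to Gli2 were Hdac9 (distance 0.0687), Ypel2 (distance 0.0816) and Snai2 (distance 0.0898). Nearest to Shh were Mtfp1 (distance 0.112), Rflna (distance 0.129) and Pcdh17 (distance 0.134), and nearest to Hhip were Chad (distance 0.0745), Cldn10 (distance 0.115) and Psmb9 (distance 0.115). All 6 genes named for Gli3 and Gli2 were, like them, lower in the vestibule, at log2 differences of -1.47 to -0.60. With 6 arrays in 2 tissues the distance is set mainly by the tissue difference itself.

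**Figure D4:**
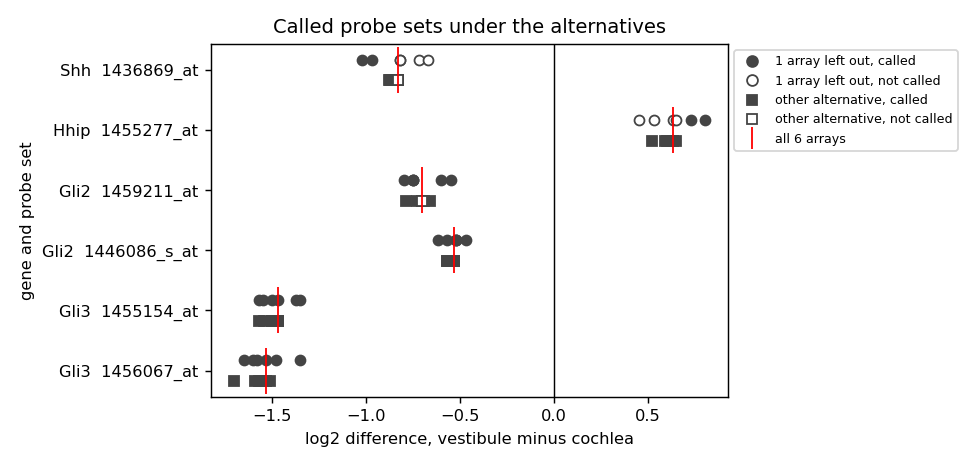
Log2 difference of vestibule minus cochlea for the 6 called probe sets with all 6 arrays (red bars), with 1 array left out (circles) and under the other alternatives (squares), filled where the call was kept. No value crosses 0; Gli3 stays filled throughout, while Shh and Hhip each have 4 open circles.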

How the data were processed

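Per the labels and the study's methods, total RNA was amplified and hybridised to Affymetrix mouse genome arrays, and the authors computed log2 values by RMA with quantile normalization. The deposited log2 values were used unscaled. With 64 control probe sets set aside, tests ran on the 29636 brightest by mean level, the number the authors kept by Present calls, which could not be repeated here. The platform annotation named 1 gene for 34945 probe sets, several for 932 and none for 9160, and 34741 symbols were updated through Entrez numbers. The 3 arrays of each tissue were compared with limma 3.58.1 in R 4.3.3 (lmFit and eBayes, two-sided) on all 6 arrays, read with the package data.table (version 1.17.8) and checked on simulated data. The study names no test for these arrays. A gene counted as called where any probe set was, and its single value is that of its brightest tested probe set. With 3 arrays a side, the smallest p of an exact permutation test is 0.1, and the number of arrays limits the precision. No array copied another, since pairs of arrays shared the same value at 12.0% to 21.4% of probe sets.

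The members, the lists and the rule for named genes were chosen with earlier results of these data known. The rule names all members, up to 4 called genes of each list with the largest difference beside ligands, receptors and regulators of the core pathway, and the 3 genes nearest in pattern. Foxf1, Ccnd1, Ccnd2, Sfrp1 and Otx1 fall outside this rule and were named after their values were seen. The lists, from textbook knowledge, were ligand release and reception, cytoplasmic and ciliary regulators, targets, ventral otocyst genes, and markers of neurons, Schwann cells, cartilage and bone, mesenchyme, hair cells and supporting cells. A log2 summed level is the log2 of the sum of a list's linear values on 1 array. Alternatives were no filter, the 20000 brightest probe sets, centring on array medians, quantile normalization once more, array weights or a trend in limma, a replicate block, omission of each array, an adjusted p under 0.05, no minimum fold, a random value of up to 0.05 added, and other ways to join probe sets. Python 3.11.15 with numpy 2.4.6, pandas 2.3.3 and matplotlib 3.10.9 searched the promoters and drew the plots.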

Additional observations from a re-analysis of the deposited data

How the results depend on the processing

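Both tested probe sets of Gli3 and the probe set 1446086_s_at of Gli2 kept their direction and their call under all 14 alternatives that refitted them, at -1.57 to -1.35, -1.70 to -1.35 and -0.62 to -0.47. The member probe sets called higher in the cochlea numbered 5, 4 to 5 without 1 array, and 3 under the replicate block, in which Shh (-0.83, limma adjusted p = 0.157) and the probe set 1459211_at of Gli2 (-0.70, limma adjusted p = 0.123) were not called. The deviations of arrays with the same number correlated at 0.217, 0.153 and -5.47e-04, and those of arrays with unlike numbers at -0.224 to 0.029. These values do not settle whether the numbers pair the arrays. The labels do not say so either, and the main test did not pair them. The 1 member probe set, and the 1 member gene, called higher in the vestibule became 2 with array weights, which added Smo (0.43, limma adjusted p = 0.0490), and 0 at an adjusted p under 0.05. Each ranged from 0 to 1 without 1 array. The count of genes was also 0 where the probe sets of each gene were averaged. Without cochlear array 2 the call was that of Smo and not of Hhip. The sign turned for 1 tested probe set, 1450824_at of Ptch1, at -0.10 without cochlear array 2 (up to 0.30 without cochlear array 3), and no call was involved. Of the other pathway genes, in lists with 13, 24, 14 and 3 tested, 7 were higher in the cochlea (5 to 10 over 19 alternatives). In the vestibule 15 were higher (11 to 17). Over all tested genes 9.63% were called for the cochlea and 17.4% for the vestibule, so calls for the vestibule were the more common on the whole array. The size of that excess depended on the scaling. The vestibule had 62% of all called probe sets, but 55.3% after median centring and 53.3% after a second quantile normalization. The 6 dim probe sets carry no adjusted p in the test, and differences there may be understated.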
